A study of Mus musculus with 201 samples.

Results

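The nuclei described here came from the dentate gyrus of a mouse left in its home cage (HC) and from the dentate gyrus of a mouse that had explored an unfamiliar environment (NE), and in the NE mouse only the nuclei sorted as FOS- were used. All 23 HC nuclei of the deposited table entered the comparison. Of 48 nuclei labelled FOS-, 41 entered, because 7 had a total expected count under 50000 and no further nucleus had fewer genes above 1 TPM (transcript abundance corrected for gene length and library size) than the mean of its table minus 2 SD, a limit of 693 genes. The rule used depth and gene number and no comparison between the groups: the deepest nucleus left out had a total of 46086 and the shallowest kept had 63775. The 2 tables shared 42687 gene symbols, and 14423 of these exceeded 1 TPM in at least 5 of the 64 nuclei. The question was how far HC and FOS- nuclei gave the same picture, in which genes were detected and in how the genes ranked.

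Both groups were snRNA-seq libraries of single nuclei freed by Dounce homogenization, each from 1 female C57BL/6 mouse of 8 weeks. The HC nuclei were NEUN+ PROX1+, which the labels give as a sort and the study's methods as scoring of the stained nuclei in images of the chip, and they were amplified on the Fluidigm C1 and sequenced as paired 100-base reads. The FOS- nuclei were sorted as PROX1+ FOS- from a mouse given 15 min in the NE and killed 1 h after its return to the HC. They were amplified in wells with Smart-seq2 and sequenced as single 50-base reads, in 4 amplification conditions: a template-switching oligo (TSO) at 1 or 10 µM, combined with ERCC spike-in RNA diluted 1:200 or 1:2000 (10, 10, 10 and 11 nuclei). Mouse, experience, selection of nuclei, amplification, read type and table all changed together between the groups and cannot be told apart. With 1 mouse on each side no test between mice could be made, so differences are descriptions, and the 95% exact binomial (Clopper-Pearson) intervals cover counting error among nuclei only. A gene detected in 0 nuclei allows a share of nuclei with detection of up to 13.04% in HC and 7.32% in FOS- nuclei, taken as 3 nuclei of the total, which limits detection and not expression. FOS+ nuclei of the NE mouse and whole granule cells of saline-injected mice are given for comparison. The whole cells came from pooled Prox1-EGFP mice killed 1 h after injection. They were dissociated with papain, sorted on the fluorescent protein, amplified with Smart-seq2 and sequenced as paired 100-base reads, like HC.

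Dentate granule cells (DGCs) are the principal excitatory neurons of the dentate gyrus. They receive input from the entorhinal cortex, send mossy fibres to CA3 and fire sparsely, so that in a resting animal few of them carry the products of immediate early genes (IEGs) such as Fos and Arc. PROX1 is a homeodomain transcription factor that specifies and maintains DGC identity, and NEUN, the product of Rbfox3, is an RNA splicing factor used as a marker of mature neurons. RNA in the nucleus is rich in unspliced transcripts and in noncoding RNAs that are retained there, whereas messenger RNAs of ribosomal, metabolic and cytoskeletal genes accumulate in the cytoplasm.

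Depth and gene number both had a higher median in FOS- nuclei. Total expected counts ran from 107647 to 278779 in HC nuclei (median 165926) and from 63775 to 1060516 in FOS- nuclei (median 214421), and 16 of 41 FOS- nuclei lay within the HC range. HC nuclei gave 3237 ± 371 genes above 1 TPM (SD, n = 23), with 2329 in the lowest, 3213 in the median and 3986 in the highest nucleus. FOS- nuclei gave 6281 ± 1539 genes (SD, n = 41), from 3421 through a median of 6020 to 9820. In 39 of 41 FOS- nuclei more genes were detected than in any HC nucleus, a ratio of the means of 1.94. After every nucleus was thinned to 50000 counts the means were 2351 ± 264 and 4373 ± 994, a ratio of 1.86, and 40 FOS- nuclei were above the highest HC nucleus. The 4 amplification conditions differed among themselves, with means of 4694 ± 683 genes at 1 µM TSO and 1:200 ERCC, 6259 ± 957 at 1 µM and 1:2000, 6044 ± 1114 at 10 µM and 1:200, and 7960 ± 1196 at 10 µM and 1:2000. 1 HC nucleus with 2329 genes lay under the 2495 that the same SD limit would set within its own table, and it was kept because the rule applied that limit to NE nuclei only. 1 FOS- nucleus stood apart by its genes: it held 5585 TPM of Vip, 128 of Slc32a1 and 101 of Gad1, which are interneuron genes, beside 336 TPM of Prox1 and 4915 of Calb1.

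**Figure D1:**
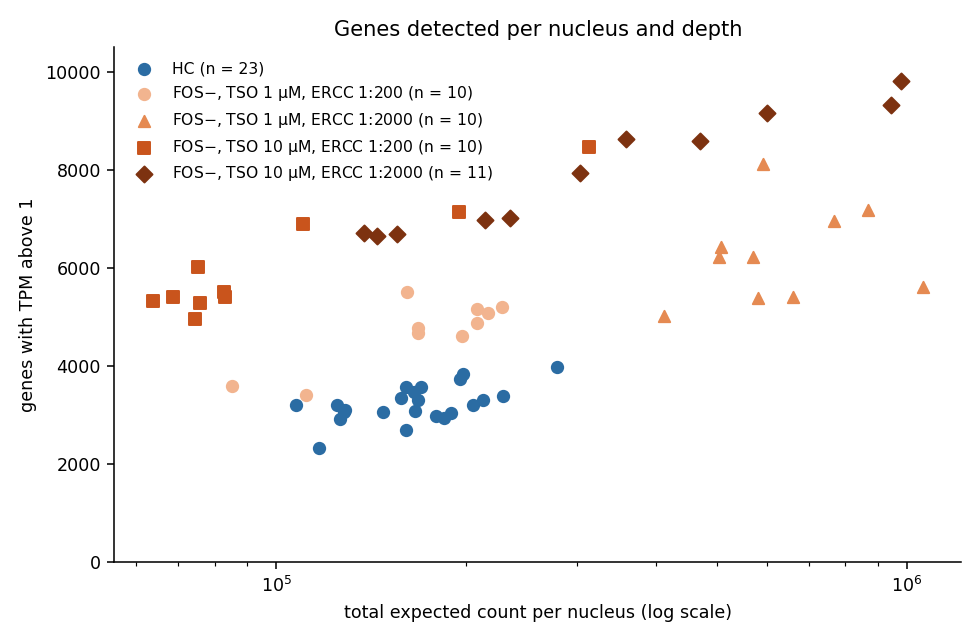
Genes above 1 TPM in each nucleus (vertical axis, number of genes) against its total expected count (horizontal log axis), for HC nuclei and for FOS- nuclei by amplification condition. All HC nuclei lie at or below 3986 genes, and 39 of 41 FOS- nuclei lie above that at depths that overlap.

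The label of both groups was checked with Prox1 and Rbfox3, the genes of the proteins stained in 1 or both experiments. Prox1 (chr1:190118035-190170714, minus strand, GRCm38) exceeded 1 TPM in 14 of 23 HC nuclei, 60.9% (interval 38.5 to 80.3), and in 34 of 41 FOS- nuclei, 82.9% (67.9 to 92.9). Its level ran from 0 through a median of 10.9 to 319 TPM in HC and from 0 through 49.6 to 462 TPM in FOS- nuclei, so the groups overlapped over most of their range. Across the conditions Prox1 was detected in 60%, 80%, 90% and 100% of FOS- nuclei in the order given above, and the first of these values lay beside that of HC. Rbfox3 (chr11:118489762-118911597, minus strand) was detected in 11 of 23 HC nuclei, 47.8% (26.8 to 69.4), and in 31 of 41 FOS- nuclei, 75.6% (59.7 to 87.6). Rbfox3 had a median of 0 and a maximum of 973 TPM in HC, and a median of 136 and a maximum of 1202 TPM in FOS- nuclei. In the 1 µM and 1:200 condition alone Rbfox3 was in 50% of FOS- nuclei, 2.17 points above HC. Both transcripts were present together in 7 HC and 26 FOS- nuclei. Neither was present in 5 HC nuclei (21.7%) and in 2 FOS- nuclei (4.88%).

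Over these genes the median gene was detected in 13.04% of HC and 34.1% of FOS- nuclei, a median difference of 17.1 points that was 10.8 points in thinned counts. Detection was higher in FOS- nuclei for 12534 genes (86.9%) and higher in HC for 1783 (12.4%). On the log2(TPM + 1) scale, which compresses differences of low genes, the median gene's mean level was 0.84 higher in FOS- nuclei. Gene by gene values are therefore read against these medians below. A total of 106 genes were present in every nucleus of both groups. At least 90% of HC nuclei shared 588 genes and at least 90% of FOS- nuclei shared 960, with 326 in common, which is 55.4% of the first set and 33.96% of the second. No HC nucleus held 2828 of the genes, whereas 16 were at 0 in FOS- nuclei. The filter reads both groups together, and the FOS- group is the larger.

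**Figure D2:**
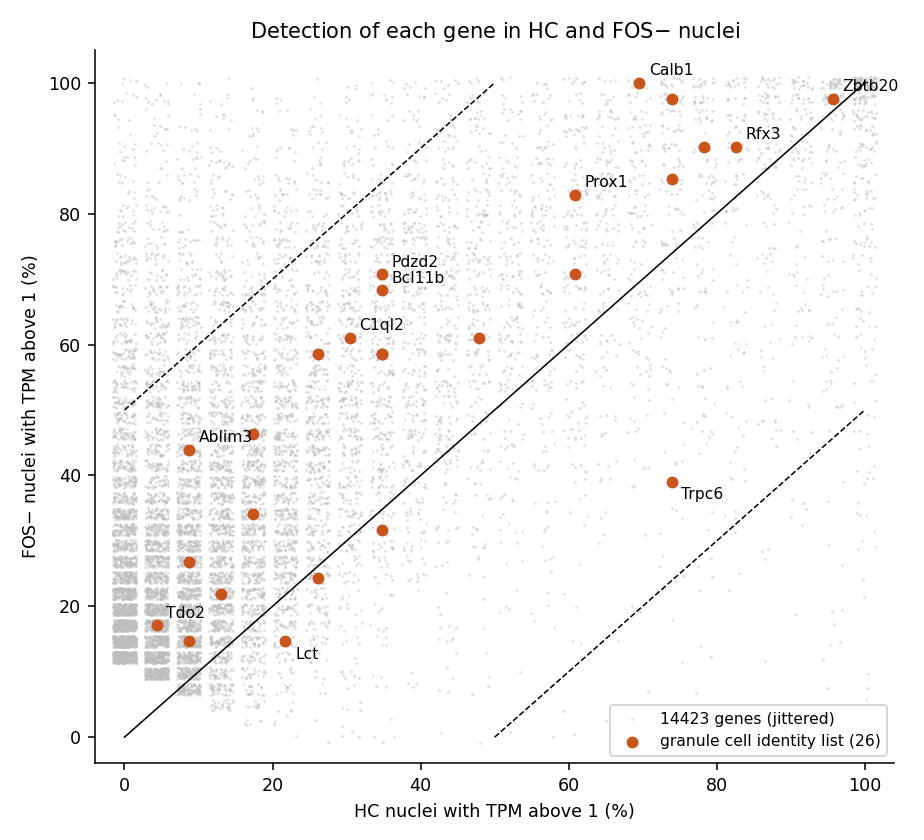
Percent of HC nuclei (horizontal axis) and of FOS- nuclei (vertical axis) in which each gene exceeded 1 TPM, for every gene that passed the filter, jittered slightly, with granule cell identity genes marked, a solid line for equal detection and dashed lines for 50 points. Most genes lie above the diagonal, the median gene at 13.04% and 34.1%.

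The ranking of genes was compared next. Ordering genes by mean log2(TPM + 1), HC and FOS- profiles had a Spearman's rho of 0.607 and a Pearson's r of 0.704 across the same genes, which are not independent replicates, and 53 of the 100 highest-ranked genes were shared. HC against single amplification conditions gave a rho of 0.475 to 0.577 and 47 to 52 shared genes. The 4 FOS- conditions against each other gave 0.620 to 0.760 and 69 to 76 shared genes. FOS+ nuclei of the same NE mouse against those conditions gave 0.708 to 0.786 and 71 to 76 shared genes. Over these genes HC nuclei stood further from any FOS- condition than FOS- conditions stood from each other or FOS+ nuclei from FOS-. The filter read HC and FOS- nuclei together, and 2828 of the genes were at 0 in HC and 16 in FOS- nuclei. Genes at 0 tie at the bottom of a ranking. The rho of HC and FOS- nuclei was 0.704 without a filter and 0.542 with at least 10 nuclei required. Those among FOS- conditions and with FOS+ nuclei were not recomputed under another filter. Whole DGCs of saline-injected mice, 38 cells dissociated with papain, had a rho of 0.550 with HC and 0.503 with FOS- nuclei, and shared 9 of the 100 highest-ranked genes with HC and 15 with FOS- nuclei.

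The 10 genes highest in both rankings were Malat1, Gm17132, Snhg14, Gria2, Gm26905, Gm38356, Gm37404, Gm37515, Gm12940 and Meg3, 6 of which are predicted genes and 3 of those annotated as pseudogenes. Malat1, a nuclear-retained long noncoding RNA of speckles, ranked first in both, at 113657, 224995 and 353150 TPM (lowest, median, highest) in HC and at 27302, 84947 and 153245 TPM in FOS- nuclei. It took 10.6 ± 3.77% of the counts of HC nuclei (SD, n = 23) and 3.38 ± 1.30% of those of FOS- nuclei (SD, n = 41), against 0.749 ± 0.404% in saline-treated whole cells (SD, n = 38). The ranges of this share, 4.26 to 19.5% in HC and 1.12 to 6.27% in FOS- nuclei, overlapped in part. The 10 highest genes of a nucleus took a median of 39.8% of TPM in HC and 14.2% in FOS- nuclei, so the remaining genes shared less of the total in HC. Snhg14, the host transcript of the imprinted snoRNA clusters, was at place 8 in HC and 9 in FOS- nuclei. Meg3, a maternally expressed imprinted noncoding RNA, was at places 20 and 13. Gria2, the AMPA receptor subunit that makes the channel impermeable to calcium, was at places 5 and 14 with medians of 1506 and 1422 TPM.

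Genes of DGC identity were, like most genes, detected in fewer HC than FOS- nuclei, and their ranks went both ways. The list held 26 genes, all of which passed the filter, with a median detection of 34.8% in HC and 58.5% in FOS- nuclei, and 47.5% in FOS+ nuclei. The median difference was 14.95 points against 17.1 for all genes, and it was 13.3 points in thinned counts. Detection was higher in FOS- nuclei for 22 of the 26 (84.6%), beside 86.9% of all genes. It was higher in HC for Trpc6, Lct, Plk5 and Ntng1. At least 25 points separated the groups in favour of FOS- nuclei for 7 of 26, against 32.4% of all genes, and in favour of HC for 1, against 2.19%. No member differed by 50 points in either direction, where 8.23% of all genes did so towards FOS- and 0.534% towards HC. The median rank percentile of the list was 83.2 in HC and 79.5 in FOS- nuclei, and 13 of 26 ranked higher in FOS- nuclei. Single members moved far in both directions, such as Lct with percentiles of 68.7 in HC and 26.7 in FOS- nuclei, Plk5 with 80.8 and 51.3, and Ablim3 with 36.99 and 70.2. With the 10 nuclei of the 1 µM and 1:200 condition alone, the list's median difference had the opposite sign, -1.74 points.

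Calb1, which encodes the calcium buffer calbindin of mature DGCs, was the member with the widest difference in level. It was detected in 16 of 23 HC nuclei and 41 of 41 FOS- nuclei. Its TPM ran from 0 through 188 to 5777 in HC and from 940 through 5600 to 24658 in FOS- nuclei, so part of the HC nuclei reached the lower FOS- levels. Calb1 (chr4:15881264-15908064, plus strand) was at place 275 in HC and place 2 in FOS- nuclei.

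Transcription factors of the list varied. Zbtb20, a zinc finger repressor needed for hippocampal neuron identity, was found in 22 of 23 HC and 40 of 41 FOS- nuclei, with medians of 476 and 755 TPM and places 67 and 46. Rfx3 was found in 19 and 37 nuclei at places 320 and 299. Bcl11b (CTIP2), a zinc finger factor of maturing DGCs, was found in 8 HC and 28 FOS- nuclei, and it differed by at least 25 points from HC in every amplification condition. Neurod1, a bHLH factor of neuronal differentiation, was in 4 and 14 nuclei, and its relative Neurod2 and the zinc finger gene Glis3 were each in 8 and 24. Outside the transcription factors, Il1rap, the interleukin-1 receptor accessory protein, was in 17 and 35 nuclei at places 387 and 391.

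Synaptic and signalling members varied more. C1ql2, a C1q-like protein secreted at mossy fibre synapses, was in 7 of 23 HC and 25 of 41 FOS- nuclei. The 4 conditions gave C1ql2 in 20%, 60%, 80% and 81.8% of nuclei, so the lowest FOS- condition was below the 30.4% of HC. Its relative C1ql3 was in 18 and 37 nuclei, at places 544 and 583. Dock10, a guanine nucleotide exchange factor, was in 17 and 40 nuclei, with medians of 26.4 and 131 TPM. Trpc6, a receptor-operated cation channel, went the other way. It was found in 17 of 23 HC nuclei, 73.9% (51.6 to 89.8), and in 16 of 41 FOS- nuclei, 39.02% (24.2 to 55.5). Trpc6 levels were 0, 61.6 and 1003 TPM (lowest, median, highest) in HC and 0, 0 and 798 TPM in FOS- nuclei. All 4 conditions were below HC for Trpc6, at 40%, 20%, 40% and 54.5%, and FOS+ nuclei were at 25%. The difference was -34.9 points in the full and in the thinned counts, and its rank percentile was 96.6 in HC and 72.1 in FOS- nuclei.

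**Figure D3:**
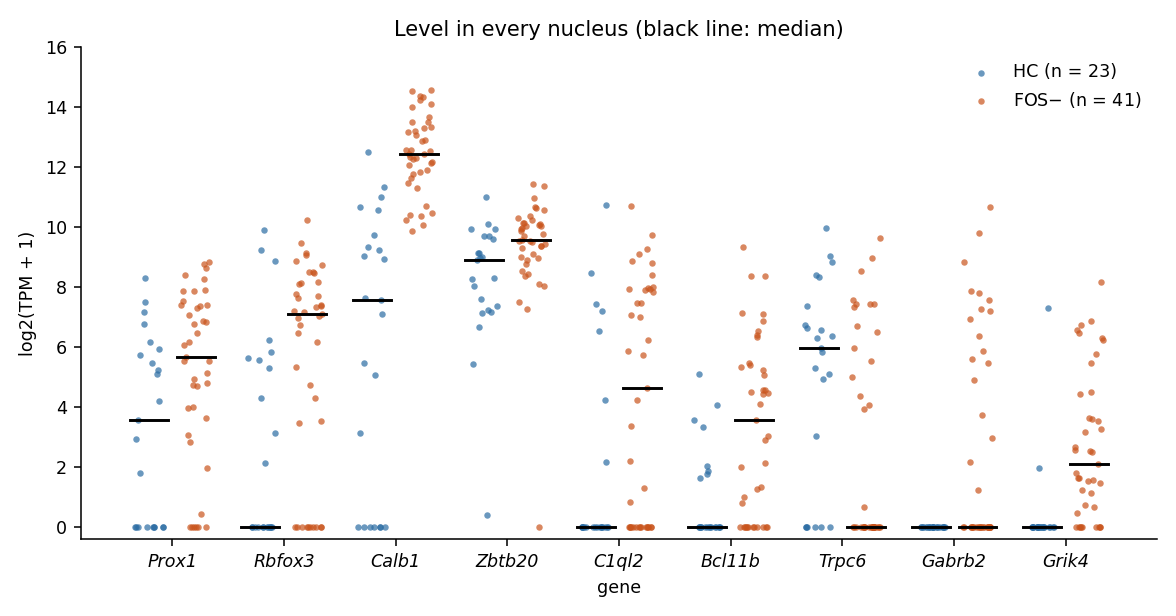
Level of Prox1, Rbfox3, Calb1, Zbtb20, C1ql2, Bcl11b, Trpc6, Gabrb2 and Grik4 in each nucleus on the log2(TPM + 1) scale (vertical axis), by group, with 1 point for each of the 23 HC and 41 FOS- nuclei. Zbtb20 overlaps across groups, Calb1 is above 0 in every FOS- nucleus, Trpc6 has more nuclei above 0 in HC, and Gabrb2 is at 0 in every HC nucleus.

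Pan-neuronal genes differed less in detection than genes in general, and about as much in level. Across 20 genes, 18 of which passed the filter, 13 had higher detection in FOS- nuclei, 6 in HC and 1 the same. The median difference was 6.26 points against 17.1 for all genes. Median detection of the list was already 50% in HC and 71.95% in FOS- nuclei, and a gene in every HC nucleus cannot be higher in FOS-. The median difference in mean log2(TPM + 1) was 0.78, against 0.84 for all genes. Celf2, a neuronal splicing regulator, was in 23 of 23 HC and 40 of 41 FOS- nuclei with medians of 1268 and 1082 TPM. Ank2, the ankyrin of axonal membranes, was in every nucleus of both. Snap25, a SNARE protein of synaptic vesicle fusion, was in all 23 HC nuclei and in 36 of 41 FOS- nuclei.

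IEGs were scarce in both groups. Of 25 IEGs, 14 were at 0 in HC and 3 in FOS- nuclei, and Npas4, Ier2 and Dusp1 were at 0 in both. The filter was passed by 11 of the 25. Of all genes passing it, 19.6% were at 0 in HC and 0.111% in FOS- nuclei. A nucleus held 0 to 4 of the 25 in HC (median 1) and 1 to 10 in FOS- nuclei (median 3), against 2 to 23 in FOS+ nuclei (median 12), and 6 HC nuclei (26.1%) held none. Fos, the AP-1 subunit whose protein was absent by the sort, was found in 0 HC nuclei and in 3 of 41 FOS- nuclei, with 13.8 TPM at most. Arc, a synaptic plasticity effector, was found in 1 nucleus of each group. Egr1, a zinc finger transcription factor, was in 1 HC and 5 FOS- nuclei. The IEGs that were 25 points or more apart were Jun (2 of 23 and 14 of 41), Jund (2 and 15) and the kinase Sik1 (1 and 13). This was 3 of 25 over the whole list, against 32.4% of all genes passing the filter. Homer1, the postsynaptic scaffold, was in 7 and 22 nuclei, and the neurotrophin gene Bdnf in 7 and 16. HC nuclei also had on average fewer detected genes of any kind, and the part of this in the IEG counts was not tested.

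Glutamate receptor subunits divided into shared and uneven members. Gria2 and Grin2b, an NMDA receptor subunit, were found in every nucleus of both groups, and Gria1 in 19 of 23 HC and 41 of 41 FOS- nuclei. Grin2a was found in 11 and 35 nuclei. Grik4, a high-affinity kainate receptor subunit, was in 2 of 23 HC nuclei (8.70%) and in 29 of 41 FOS- nuclei (70.7%), and the conditions held it in 70%, 60%, 70% and 81.8%. Its median FOS- level was 3.29 TPM, near the detection limit, and it was found in 28.9% of saline-treated cells. Of 17 subunits Grik4 was the only one at least 50 points apart, against 8.23% of all genes. A further limit of 25 points towards FOS- nuclei was met by 4, against 32.4%. The filter was passed by 14 of the 17.

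GABA-A receptor subunits form the chloride channels of fast inhibition. Over 14 genes their median difference was 19.99 points, against 17.1 for all genes. Detection was higher in FOS- nuclei for 11 of the 14 (78.6%), beside 86.9% of all genes, and higher in HC for 2. The filter was passed by 12 of the 14. Gabra2 was found in 7 of 23 HC and 33 of 41 FOS- nuclei. Its difference of at least 50 points was at least 25 points against each of the 4 conditions and in thinned counts, and a difference that met all of these is called robust below. Of all genes tested, 6.61% were robust towards FOS- and 0.471% towards HC. Gabrb2 was at 0 in all 23 HC nuclei and was found in 18 of 41 FOS- nuclei (43.9%). The conditions gave Gabrb2 in 40%, 40%, 50% and 45.5%, and saline-treated cells in 94.7%. Gabra3 went the other way, in 10 HC and 6 FOS- nuclei.

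Synaptic adhesion genes followed the same direction, with 9 of 10 higher in FOS- nuclei, beside 86.9% of all genes. Nrxn2, a presynaptic neurexin, was found in 3 of 23 HC and 29 of 41 FOS- nuclei and was robust. Nlgn3, a postsynaptic neuroligin, was in 7 and 34 nuclei but stood only 19.6 points from HC in its nearest condition. Lrrtm1 was in 4 and 27 nuclei, and Lrrtm2 in 0 and 9.

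Genes of ribosomes and oxidative phosphorylation had a lower median detection in both groups of nuclei than in saline-treated cells. Of 97 cytosolic ribosomal protein genes, whose median detection was 17.4% in HC, 36.6% in FOS- nuclei and 97.4% in saline-treated cells, 86 were higher in FOS- nuclei. Of 92 nuclear genes for subunits of oxidative phosphorylation, with medians of 13.04%, 34.1% and 92.1%, 82 were higher in FOS- nuclei, and both counts stand beside 86.9% of all genes. The filter on low values was passed by 87 of the 97 and 84 of the 92, and the counts are over whole lists. Shares of these lists that were 25 points or more higher in FOS- nuclei, 31.96% and 39.1%, stood beside 32.4% of all genes. Rpl7 was in 2 of 23 HC and 38 of 41 FOS- nuclei, although ribosomal protein genes share reads with many processed copies and their division is uncertain. Uqcr10, a subunit of complex III, was in 1 and 27 nuclei. The translation factor gene Eef1a1 was in 7 and 34 nuclei and the chaperone gene Hsp90aa1 in 6 and 32, both robust. Median detection was 28.3% in HC and 59.8% in FOS- nuclei over 16 housekeeping genes, and 17.4% and 31.7% over 10 heat shock genes. Actb was in 22 of 23 and 41 of 41.

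Lists of markers of other cells had median detections of 0 to 4.35% in HC and 0 to 20.7% in FOS- nuclei. Single members were found more widely. Pvalb, Olig2, Aldh1l1, C1qa, Tmem119, Cldn5, Flt1 and Cdh5 were at 0 in both groups. Of 10 interneuron genes, Slc32a1, Sst, Vip and Npy were at 0 in HC and were found in 2, 5, 3 and 2 FOS- nuclei. Gad2 was in 10 HC and 7 FOS- nuclei, at 6.50 and 9.82 TPM at most, Reln in 8 and 8, Lhx6 in 2 and 6, Gad1 in 7 and 15, and Adarb2 in 13 and 30. Gad2 was the only one 25 points apart, towards HC. Prox1 also marks some interneurons, and the label of the FOS- sort names no NEUN gate. The summed interneuron list ran to 3233 TPM in HC, nearly all Gad1 in 1 nucleus at 3231, and to 7008 TPM in FOS- nuclei. Gad1 is also expressed at a low level in DGCs and was found in 86.8% of saline-treated cells. Mbp was in 3 HC and 20 FOS- nuclei and Slc1a3, an astrocyte glutamate transporter, in 5 and 25. Dcx, a microtubule protein of immature neurons, was in 1 HC and 9 FOS- nuclei, and Sox11, a transcription factor of the same stage, in 9 and 17. Of the pyramidal and mossy cell genes, Wfs1 was in 0 and 13 nuclei and Drd2 in none. Csf2rb2 of the same list was found widely, with rank percentiles of 77.9 in HC and 83.2 in FOS- nuclei. Genes of oligodendrocyte precursors summed to 0 in every HC nucleus and to at most 167 TPM in FOS- nuclei. Summed oligodendrocyte genes reached 180 TPM in HC and 715 in FOS- nuclei, astrocyte genes 3051 and 413 TPM, and microglial genes 5.86 and 51.8 TPM. The endothelial gene Pecam1 was found in 19 HC nuclei (82.6%) and 19 FOS- nuclei (46.3%), at 43.8 and 13.8 TPM at most, without the other 3 endothelial genes. The part of such RNA in the differences between groups was not tested.

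At least 50 points separated 1187 genes (8.23%) towards FOS- nuclei and 77 (0.534%) towards HC, of which 953 (6.61%) and 68 (0.471%) were robust. In counts thinned to 50000, the same limit was met by 429 genes towards FOS- nuclei and 98 towards HC. FOS+ nuclei, made and sequenced like the FOS- nuclei, lay within 25 points of them for 939 of the 953 (98.5%) and for all 68, where 96.2% of all genes did. Saline-treated cells were nearer to HC than to FOS- nuclei for 713 of the 953 (74.8%) and for 31 of the 68 (45.6%), beside 44.99% of all genes. Those cells shared paired reads with HC and Smart-seq2 with FOS- nuclei, and the part of either was not tested. Of the 953, 933 had an annotation. Among these 63.5% were protein coding and 29.6% long noncoding or unconfirmed transcripts, beside 75.4% and 17.1% of all annotated genes. The median exonic length was 3872 bases for the 933 and 4012 for all annotated genes.

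Several genes were in every FOS- nucleus and in none or nearly none of the HC nuclei. Prr15 (chr6:54325835-54330201, plus strand) was listed at 0 in all 23 HC nuclei and ran from 189 through 1046 to 2614 TPM in FOS- nuclei, with no overlap. Gprc5c, an orphan G protein-coupled receptor, ran from 1.09 through 133 to 4426 TPM in FOS- nuclei, and Peg12, an imprinted gene expressed from the paternal copy, from 5.26 through 72.97 to 1066 TPM, each against 0 in every HC nucleus. Lgmn, the lysosomal protease legumain, was in 1 HC nucleus and ran from 42.3 to 5053 TPM in FOS- nuclei. Cit, the citron kinase of cytokinesis, was in 1 HC nucleus at 1.33 TPM and ran from 18.7 through 95.4 to 695 TPM in FOS- nuclei. Saline-treated cells held Prr15, Gprc5c and Peg12 in 10.5% each, Lgmn in 42.1% and Cit in 0%.

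In the opposite direction fewer genes stood as far apart. Klk14, a secreted serine protease, was in 21 of 23 HC nuclei, at 0, 127 and 1136 TPM (lowest, median, highest), and in 0 of 41 FOS- nuclei. Rab33b, a small GTPase of the Golgi, was in every HC nucleus at 31.3, 90.2 and 251 TPM and in 2 FOS- nuclei, and 89.5% of saline-treated cells held it. Gm7976, a long noncoding RNA, was in every HC nucleus at 9.21, 84.4 and 424 TPM and in 3 FOS- nuclei. Pigr, the receptor that carries polymeric immunoglobulins across epithelia, was in 21 HC and 2 FOS- nuclei, and Tax1bp3, a PDZ domain protein, in 22 and 3. The zinc finger genes Zscan2 and Zc3h12b were each in 22 HC and 6 FOS- nuclei.

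**Figure D4:**
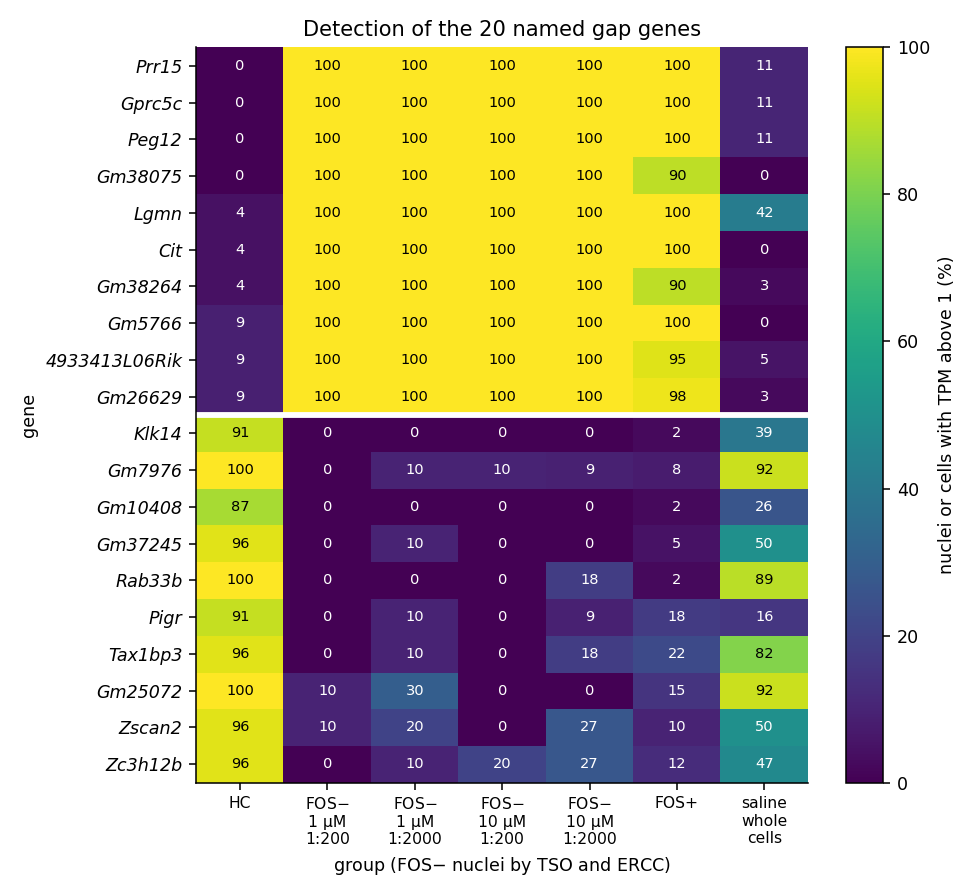
Percent of nuclei or cells above 1 TPM (colour) for the 20 robust genes, 10 in each direction, with the widest difference in their nearest amplification condition (rows), in HC, the 4 FOS- amplification conditions, FOS+ nuclei and saline-treated cells (columns). The contrast of HC with the 4 conditions follows from how the genes were chosen. FOS+ nuclei, which the choice did not use, lie on the side of the FOS- nuclei.

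Small or structural RNAs made 13.8% of the annotated genes robust towards HC and 3.97% of those robust towards FOS-, beside 3.45% of all genes. Gm25072, annotated as a miscellaneous RNA of 235 bases, was among the 10 named towards HC: it was in all 23 HC nuclei at 230, 1261 and 2688 TPM and in 4 FOS- nuclei with 74.95 TPM at most. Gm25072 is a copy of the B1 repeat, a short interspersed element derived from 7SL RNA. The other short genes printed here were chosen after their values were seen, to show which of these genes were found in which group. Sequences are those of the annotated genes in GRCm38, 5′ to 3′, and capitals mark a stretch of 16 bases, TAGACCAGGCTGGCCT or its reverse complement AGGCCAGCCTGGTCTA, the one held by most of the short genes robust towards HC and, among ties, by most robust towards FOS-. Gm23268 (chr5:135837295-135837372, minus strand, 78 bases) was in 1 HC and 38 FOS- nuclei and Gm22395 (chr5:64107407-64107502, minus strand, 96 bases) in 2 and 35. Gm25072 lies at chr15:79094823-79095057 on the minus strand. Gm24975 (chr1:183074606-183074706, plus strand, 101 bases) lacks the stretch and was in 1 HC and 40 FOS- nuclei.
Gm23268: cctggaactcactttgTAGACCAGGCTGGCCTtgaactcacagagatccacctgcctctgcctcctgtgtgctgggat
Gm22395: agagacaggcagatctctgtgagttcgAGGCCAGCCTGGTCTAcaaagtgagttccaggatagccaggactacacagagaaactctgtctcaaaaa
Gm25072: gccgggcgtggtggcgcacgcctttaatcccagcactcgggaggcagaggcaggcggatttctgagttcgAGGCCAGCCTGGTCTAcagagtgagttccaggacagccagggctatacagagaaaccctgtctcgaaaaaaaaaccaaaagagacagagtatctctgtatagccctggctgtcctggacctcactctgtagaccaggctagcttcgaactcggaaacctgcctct
Gm24975: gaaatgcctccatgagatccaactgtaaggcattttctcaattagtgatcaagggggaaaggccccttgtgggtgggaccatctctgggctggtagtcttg

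Gm23268, Gm22395 and Gm24975 had median levels of 1027, 450 and 1472 TPM in FOS- nuclei against 0 in HC. The sequence of Gm24975 is identical in 4 annotated genes, so the division of their reads is uncertain. The genes that hold the stretch share at least its 16 bases. Of those robust towards HC, Gm23681, Gm27857 and Gm23638 (126 bases each) are identical in sequence, so the division of their reads is uncertain too. Likeness beyond the stretch short of full identity was not measured. Reads of up to 50 or 100 bases may match many of them. Of 556 genes up to 300 bases long, 84 (15.1%) held the stretch on either strand, beside 16 of the 44 robust towards FOS- and 9 of the 9 robust towards HC, from which it was picked.

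The 84 genes divided by length. The 26 of at most 100 bases had a median detection of 0% in HC, 57.3% in FOS- nuclei, 65.0% in FOS+ nuclei and 0% in saline-treated cells, and 16 of the 26 were at 0 in HC, so that they passed the filter through FOS- nuclei alone. The 45 of 100 to 130 bases had medians of 43.5% in HC and 26.8% in FOS- nuclei, with 27 higher in HC and 18 in FOS- nuclei. The 13 of 130 to 300 bases had medians of 52.2% and 65.9%. Among the 202 genes of at most 100 bases that passed the filter, 111 were at 0 in HC and had passed through FOS- nuclei alone, and 127 were at 0 in saline-treated cells. Absence in HC was not limited to this length. It held for 150 of the 230 genes of 100 to 130 bases and 32 of the 50 of 130 to 200 bases, beside 19.6% of all genes. The sources used here do not give a lower length limit for the counting, and the part of read type and read length in these values was not tested.

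**Figure D5:**
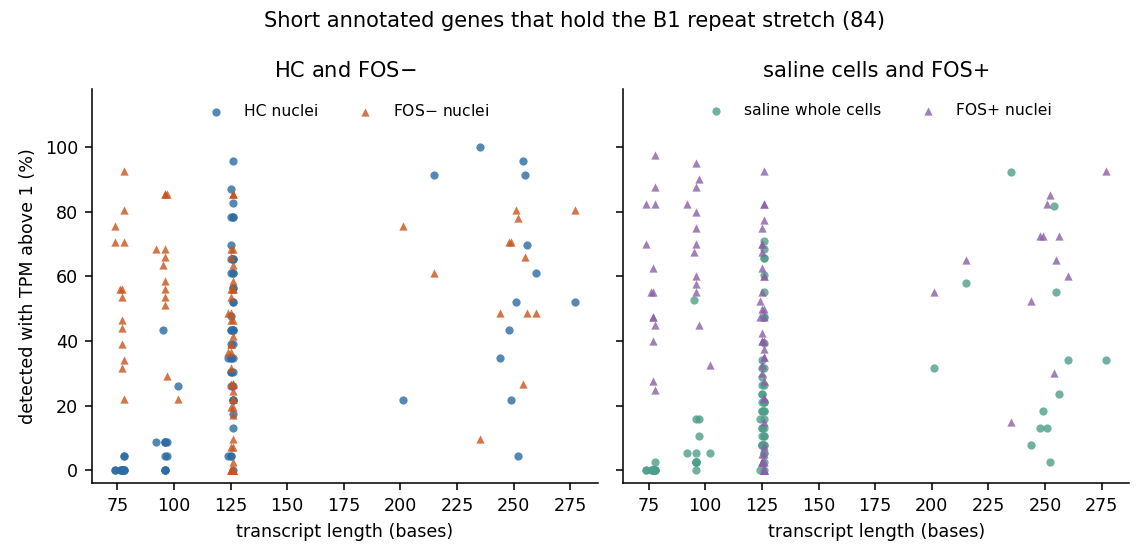
Percent of nuclei above 1 TPM (vertical axis) against transcript length in bases (horizontal axis) for the 84 genes up to 300 bases that hold the 16-base stretch, in HC and FOS- nuclei (left) and in saline-treated cells and FOS+ nuclei (right). The 26 genes of at most 100 bases have a median of 0% in HC and 57.3% in FOS- nuclei, and of the 58 longer genes 1 is at 0% in HC and 9 at 0% in FOS- nuclei.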

How the data were processed

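The authors aligned reads to mm10 with Bowtie 1.0.0 and quantified genes with RSEM, per the labels, and deposited expected counts and TPM for every nucleus. They used Ensembl gene annotation, whose release is not given in the sources used here. From these tables the total expected count was summed for each nucleus, and a gene was called detected above 1 TPM. Levels are means of log2(TPM + 1), with a pseudocount of 1. Genes above 1 TPM in at least 5 of 64 nuclei were kept. Expected counts were rounded to whole numbers and thinned to 50000 for each nucleus with a fixed seed. Exact binomial intervals were computed with scipy 1.17.1 in python 3.11.15. The scripts for detection differences were tested on simulated data. Coordinates, transcript types and sequences came from GENCODE M21 on GRCm38 (mm10), which matched 13986 (97.0%) of the 14423 genes. Depth ran from 63775 to 1060516 counts, so 3 counts made between 0.000283 and 0.00470% of a nucleus.

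No fit or p-value was computed, because each group held 1 mouse. The named genes were, besides the listed genes, the 10 robust genes in each direction with the widest difference in detection in their nearest amplification condition, and the 10 with the highest mean rank in both groups. The groups, gene lists and this rule were chosen with earlier results of these data known. The alternatives were other detection limits, filters, pseudocounts, thinning, depth-matched nuclei, single amplification conditions and leaving out each nucleus. The mitochondrially encoded genes were not analysed here, and a few items are not reported here.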

Additional observations from a re-analysis of the deposited data

Results flagged for a closer look

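Dixon's criterion was applied within the 3 amplification conditions of 10 FOS- nuclei, to the total expected count, the genes above 1 TPM and the levels of Prox1 and Rbfox3, over 12 groups of values in all, and it marked 2. Chance marks about 1 in 20 groups. At 10 µM TSO and 1:200 ERCC, FOS- replicate 17 had a total expected count of 313436, far above the other nuclei of its condition. In the same condition FOS- replicate 21 had an Rbfox3 level of 0 on the log2(TPM + 1) scale, with the other 9 nuclei all above it.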

How the results depend on the processing

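No paired analysis was possible because each group held nuclei of 1 mouse and replicate numbers only named nuclei. FOS- nuclei had more genes per nucleus than HC under all 15 alternatives, by 1457 genes with the 1 µM and 1:200 condition alone and by 4724 with the 10 µM and 1:2000 condition alone, against 3044 with all, and by 2956 to 3116 when any nucleus was left out. The rho of 0.607 was 0.327, 0.391, 0.390 and 0.470 with single conditions and genes filtered anew (1 µM and 1:200, 1 µM and 1:2000, 10 µM and 1:200, 10 µM and 1:2000), 0.450 with nuclei within the HC depth range, 0.704 without a filter and 0.542 with at least 10 nuclei required. The shared number among the 100 highest genes stayed between 46 and 58. Genes at least 50 points higher in FOS- nuclei numbered 479 when 5 counts were required, 429 in thinned counts, 743 with all 48 nuclei, 1967 at 1 µM and 1:2000, 3141 at 10 µM and 1:2000, and 193 at 75 points, against 1187. Those higher in HC numbered 168 at 1 µM and 1:200, 169 at 10 µM and 1:200 and 16 at 75 points, against 77. With 1 µM and 1:200 alone the Prox1 difference was -0.870 points, the Rbfox3 difference 2.17 points and the median of the granule list -1.74 points. Leaving out 1 nucleus kept these within 19.3 to 24.1, 25.6 to 30.2 and 13.6 to 18.02 points. The alternatives chosen after seeing the data left out the nucleus rich in Vip, rescaled TPM without Malat1, or kept genes over 200 bases. None of them moved a value it was run on beyond the limit set for that value. The limit was a fixed ratio for numbers of genes shared or apart and an interval of the difference for Prox1 and Rbfox3. For the other values it was an SD over nuclei or over conditions. The cause of the differences between settings was not tested.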

Other observations

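Xist, the noncoding RNA that coats the inactive X chromosome, was found in every nucleus of both groups, with medians of 211 TPM in HC and 219 TPM in FOS- nuclei, and Tsix, on its opposite strand, in 22 of 23 and 41 of 41. Reads of this antisense pair can be told apart only where strand is counted. Kcnq1ot1 and Snhg11 were also in every nucleus of both groups, whereas Mirg was in 2 HC and 14 FOS- nuclei and Neat1, the scaffold of paraspeckles, in 3 and 7.

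Of 8 voltage-gated calcium channel alpha subunits, none was 50 points apart, against 8.23% of all genes towards FOS- and 0.534% towards HC. Their median detection was 50% in HC and 63.4% in FOS- nuclei, and Cacna1e was in 22 of 23 and 41 of 41. Of 16 genes of the ERK to CREB cascade, 15 were higher in FOS- nuclei, beside 86.9% of all genes, with medians of 21.7% and 46.3%. The filter was passed by 14 of the 16. Elk1, an ERK-regulated ETS factor, was in 5 and 30 nuclei, and Creb1 in 3 and 21. Csf2rb2, listed as a mossy cell marker, was in 15 HC and 39 FOS- nuclei, with 17.1 and 51.6 TPM at most.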
